A study of Mus musculus with 12 samples.

Results

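The comparison described here sets marrow lacking both Fancc and Fancg against marrow lacking Fancg alone, and so asks what a loss of Fancc adds where Fancg is already missing. It used 6 of the 12 arrays of the series: double knock-out (Fancc-/-//Fancg-/-) replicates 1 to 3 and Fancg-/- replicates 1 to 3. By the labels, the loss of Fancg is shared by all 6. The other 6 arrays, 3 from Fancc-/- mice and 3 from wild-type C57Bl/6 mice, show the loss of Fancc where Fancg is intact. RNA came from uncultured whole bone marrow, flushed out of tibia and femur, and each marrow sample gave 1 array, with no RNA pooled. The labels do not say that every marrow sample came from a single mouse, so a mouse below stands for 1 marrow sample. The labels give neither the age nor the sex of the mice. Each labelling reaction started from 2 µg of RNA, except that of Fancg-/- replicate 3, which started from 0.91 µg. Autosomal genes (chromosomes 1 to 19) with a probe set of a single gene symbol were used, each by its probe set of highest mean signal over the 12 arrays. There were 17401 such genes among 18193 on the array. Of these, 11523 were bright enough to test, and 5878 were too dim.

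The products of Fancc and Fancg belong to the core complex of the Fanconi anemia pathway, a ubiquitin ligase that marks Fancd2 and Fanci at DNA interstrand crosslinks and so starts their repair. FANCC binds FANCE and FANCF in one arm of the complex, and FANCG binds FANCA in another. Inherited loss of either human gene causes Fanconi anemia, in which the blood-forming cells of the marrow fail, and FANCC-deficient progenitors are also known for their sensitivity to inflammatory cytokines.

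Whole marrow is a mixture, so fewer cells of a type and less RNA per cell cannot be told apart in any value below. Granulocyte genes marked all 6 arrays as marrow: S100a9, a calcium-binding protein of neutrophils, had a log2 signal of 14.46, 14.43 and 14.44 in double knock-out mice, against 14.49, 14.38 and 14.49 in Fancg-/- mice. All levels are log2 RMA signals and all differences are double knock-out minus Fancg-/- on that log2 scale, unless another pair is named. The p-values measure the spread between these marrow samples.

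Arrays of both genotypes differed from their partners before any gene was compared. Over tested genes, double knock-out replicate 1 correlated at 0.973 with each of the other two mice of its genotype, which correlated at 0.992 with each other. With the Fancg-/- arrays replicate 1 correlated at 0.980 to 0.989, and replicates 2 and 3 at 0.965 to 0.974. With the wild-type arrays replicate 1 correlated at 0.9753 to 0.9795, and replicates 2 and 3 at 0.9589 to 0.9622. Replicates 2 and 3 correlated at 0.955 to 0.974 with the other 10 arrays of the series. By correlation, replicate 1 was thus nearer than its partners to the wild-type and Fancg-/- arrays. The targeted gene did not set replicate 1 apart: Fancg signal was 5.61, 5.83 and 5.78 in the double knock-out, against 6.55, 6.00 and 6.64 in Fancg-/- mice, and 6.80, 6.86 and 6.86 in wild type. Fancc signal was 6.01, 5.79 and 5.56 in the double knock-out, against 5.97, 6.13 and 6.18 in Fancg-/- mice, a difference of -0.30 ± 0.13 (SE; limma adjusted p = 0.321). Whether these probes lie in the deleted parts of the genes is not given in the sources used here, so remaining signal neither supports nor contradicts a label. Fancg-/- replicates 1 and 3 carried the marks of both sexes, which goes against a single mouse as the source of each. Eif2s3y, a Y-linked gene, was at 9.35, 8.85 and 8.81 in the double knock-out, against 7.64, 9.09 and 5.78 in Fancg-/- mice. Xist, transcribed from the inactive X chromosome, was at 7.39, 7.06 and 5.99 in the double knock-out, against 11.31, 7.34 and 10.75 in Fancg-/- mice. On these marks all 3 double knock-out arrays were alike and resembled Fancg-/- replicate 2. In Fancg-/- mice the arrays with both marks were also the arrays with the higher Fancg signal. Fancg-/- replicate 3 correlated at 0.9892 with wild type replicate 1, beside 0.9864 and 0.9854 with Fancg-/- replicates 1 and 2. With wild type replicates 2 and 3 it correlated at 0.9821 and 0.9832. The 30 leading genes and most of the gene lists described are also given without double knock-out replicate 1 or without Fancg-/- replicates 1 and 3.

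No autosomal gene passed an adjusted p of 0.05 in limma (0% of 11523), and the smallest adjusted p, 0.155, belonged to Fnip2. At an unadjusted p below 0.05 there were 1662 genes (14.4%), of which 774 were higher in the double knock-out (6.72%) and 888 lower (7.71%). The 3 arrays of each genotype did not overlap for 2232 genes (19.4%), 1033 higher (8.96%) and 1199 lower (10.4%) in the double knock-out. Median centring turned this split to 1145 higher and 962 lower, and a further quantile normalization to 902 and 1381. Differences over 2-fold were few, 82 higher (0.712%) and 79 lower (0.686%). The median difference over all tested autosomal genes was -0.03.

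The count of 0 rested on a single array. Without double knock-out replicate 1 the same limma fit called 962 genes (8.35%), 479 higher (4.16%) and 483 lower (4.19%). Leaving out any other array of the 12 gave between 0 and 4. The fit without replicate 1 was singled out after its values were seen. It leaves 2 double knock-out mice, which were alike. Its adjusted p-values and counts, here and below, therefore describe these 2 mice and are no test of the genotype. With an estimated weight for each array, all 12 were kept and 2172 genes were called. Against the mean of the Fancg-/- arrays, 218 genes were over 2-fold higher and 246 over 2-fold lower in double knock-out replicate 2, and 216 and 223 in replicate 3. In replicate 1 there were 49 and 34. For the 479 genes called higher without it, replicate 1 had a median difference of 0.14 from the Fancg-/- mean, beside 0.85 in the other two mice. Of these genes 245 lay above the Fancg-/- range in replicate 1 (51.1%, beside 23.6% of all genes), 188 lay within it and 46 below. For the 483 called lower the medians were -0.08 and -0.85, with 178 genes below the range (36.9%, beside 32.2% of all genes), 227 within it and 78 above. Replicate 1 was on the same side of the Fancg-/- mean for 76.4% of the higher genes (43.7% of all genes) and 62.3% of the lower ones (56.3% of all genes). The 479 and 483 genes were picked on replicates 2 and 3, so a smaller difference in replicate 1 was in part built in. By the array correlations and the 2-fold counts over all tested genes, the double knock-out held 2 mice that were alike and far from Fancg-/- marrow. In the same measures 1 mouse was nearer to it. With Fancg-/- replicates 1 and 3 left out as well as double knock-out replicate 1, 89 genes were called.

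**Figure D1:**
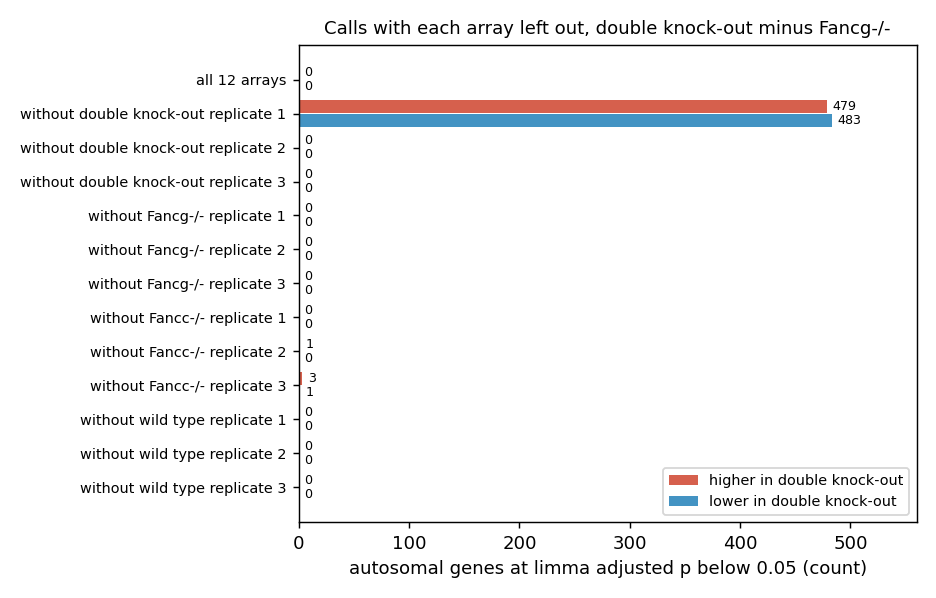
Number of autosomal genes at a limma adjusted p below 0.05 (x axis, count) in the comparison of double knock-out with Fancg-/- marrow, with all 12 arrays and with each array left out in turn (rows). The bars show genes higher (red) and lower (blue) in the double knock-out, and only the row without double knock-out replicate 1 is above 3 in either direction, with 479 and 483.

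The 15 genes of smallest p in each direction show what all 3 double knock-out mice had in common. In all 30 the genotypes did not overlap, and their adjusted p lay between 0.155 and 0.174, so none was called with all arrays. Differences were between 0.65 and 1.51 for the higher genes and between -0.49 and -1.40 for the lower ones. Without double knock-out replicate 1 all 30 passed the threshold, and with Fancg-/- replicates 1 and 3 left out as well 6 did. Without double knock-out replicate 2 or 3, 0 of the 30 passed. Against Fancg-/- replicate 2 alone the differences were 0.68 to 1.47 for the higher genes and -0.31 to -1.81 for the lower ones. Their sign was fixed in advance, since the genotypes did not overlap in these genes. The genes were picked for small p on these same arrays.

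Several of the higher genes encode proteins of signalling, lysosomes and lipid or polyamine metabolism. Fnip2, a partner of folliculin in nutrient signalling, was at 8.57, 9.07 and 9.28 in the double knock-out, against 7.86, 7.58 and 7.71 in Fancg-/- mice, a difference of 1.26 ± 0.18 (SE). Its lowest double knock-out mouse was replicate 1, still above every Fancg-/- mouse. Odc1, ornithine decarboxylase, which makes the first polyamine, was at 11.71, 11.80 and 11.87 in the double knock-out, against 11.16, 11.11 and 10.84 in Fancg-/- mice, and here replicate 1 lay close to its 2 partners. C9orf72, a regulator of lysosomes and autophagy, was at 6.87, 8.11 and 8.03 in the double knock-out, against 6.26, 6.27 and 6.31 in Fancg-/- mice, so that replicate 1 lay between the other double knock-out mice and the Fancg-/- mice. Lpin2, a phosphatidate phosphatase of lipid synthesis, was at 9.11, 9.56 and 9.77 in the double knock-out, against 8.63, 8.55 and 8.50 in Fancg-/- mice. Dusp4, a nuclear phosphatase that switches off MAP kinases, was at 6.06, 6.59 and 6.34 in the double knock-out, against 5.17, 5.27 and 4.76 in Fancg-/- mice, a difference of 1.26 ± 0.24. For both genes every double knock-out mouse was above every Fancg-/- mouse.

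Nuclear structure and transcription were represented by Lmna, Gtf2f2, Eaf1, Taf4b and Jmy. Lmna, which encodes lamins A and C of the nuclear lamina, was at 8.72, 9.29 and 9.69 in the double knock-out, against 8.06, 8.09 and 7.77 in Fancg-/- mice, 2.39-fold higher. Its value depended on the probe set: among probe sets whose names carry no _s, _x or _a suffix, the difference for Lmna was -0.08. Gtf2f2, the small subunit of the general transcription factor TFIIF, was at 7.71, 8.17 and 8.09 in the double knock-out, against 7.33, 7.29 and 6.82 in Fancg-/- mice. Eaf1 and Taf4b, which bind the elongation factor ELL and form part of TFIID, differed by 0.86 ± 0.18 and 0.90 ± 0.19. Jmy, a p53 cofactor and actin nucleator, was at 7.15, 7.11 and 7.33 in the double knock-out, against 6.76, 6.37 and 6.51 in Fancg-/- mice. Lfng, a glycosyltransferase that modifies Notch receptors, had the widest spread among the double knock-out mice of these genes, at 8.06, 9.16 and 9.43, against 7.62, 7.41 and 7.42 in Fancg-/- mice. Lgals8 (a galectin), Slc22a4 (an ergothioneine transporter) and Zfp367 (a zinc finger protein) differed by 0.65 to 0.84.

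Genes of myeloid cells, macrophages and their cytokines were among the 15 lower genes. Ms4a3, a membrane protein of granulocyte and monocyte progenitors, was at 11.17, 11.13 and 10.80 in the double knock-out, against 11.81, 11.80 and 11.81 in Fancg-/- mice, a difference of -0.77 ± 0.13. The Fancg-/- mice hardly varied for this gene and every double knock-out mouse was below them. Cebpd, a transcription factor of myeloid differentiation and inflammation, was at 9.29, 9.05 and 9.42 in the double knock-out, against 9.78, 10.11 and 10.71 in Fancg-/- mice. Mrc1, the macrophage mannose receptor, was at 5.93, 5.73 and 6.17 in the double knock-out, against 7.59, 6.67 and 7.27 in Fancg-/- mice. Ccl3, a chemokine of activated myeloid cells, was at 9.91, 9.07 and 8.95 in the double knock-out, against 9.98, 11.12 and 10.74 in Fancg-/- mice, and its groups were separated only narrowly, between double knock-out and Fancg-/- replicates 1. Prom1 (CD133), a membrane protein of progenitor cells, was at 8.62, 8.47 and 8.27 in the double knock-out, against 9.61, 9.24 and 9.58 in Fancg-/- mice, with replicate 1 again the nearest to Fancg-/-.

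Xpc, which recognizes helix-distorting damage for nucleotide excision repair and is a p53 target, was the DNA repair gene among the 30. It was at 7.91, 7.82 and 7.94 in the double knock-out, against 8.64, 8.38 and 9.02 in Fancg-/- mice, a difference of -0.80 ± 0.18 that was nearly the same in all 3 double knock-out mice. Pimreg, a mitotic protein, was at 6.09, 5.20 and 5.31 in the double knock-out, against 6.61, 6.83 and 7.36 in Fancg-/- mice, and had the largest difference of the 15, -1.40 ± 0.30. Tbc1d10c, an inhibitor of Ras and calcineurin in lymphocytes, was at 8.32, 7.34 and 7.38 in the double knock-out, against 8.71, 8.73 and 9.45 in Fancg-/- mice. Both genes put replicate 1 between its partners and the Fancg-/- mice. The remaining 7 (Marveld1, Magi3, Prss41, Kcnk6, Rgs19, Aatk and Clec2d) differed by -0.49 to -1.09. 14 of the 30 genes had a further probe set, 26 in all, and 25 of these had the sign of the probe set used.

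**Figure D2:**
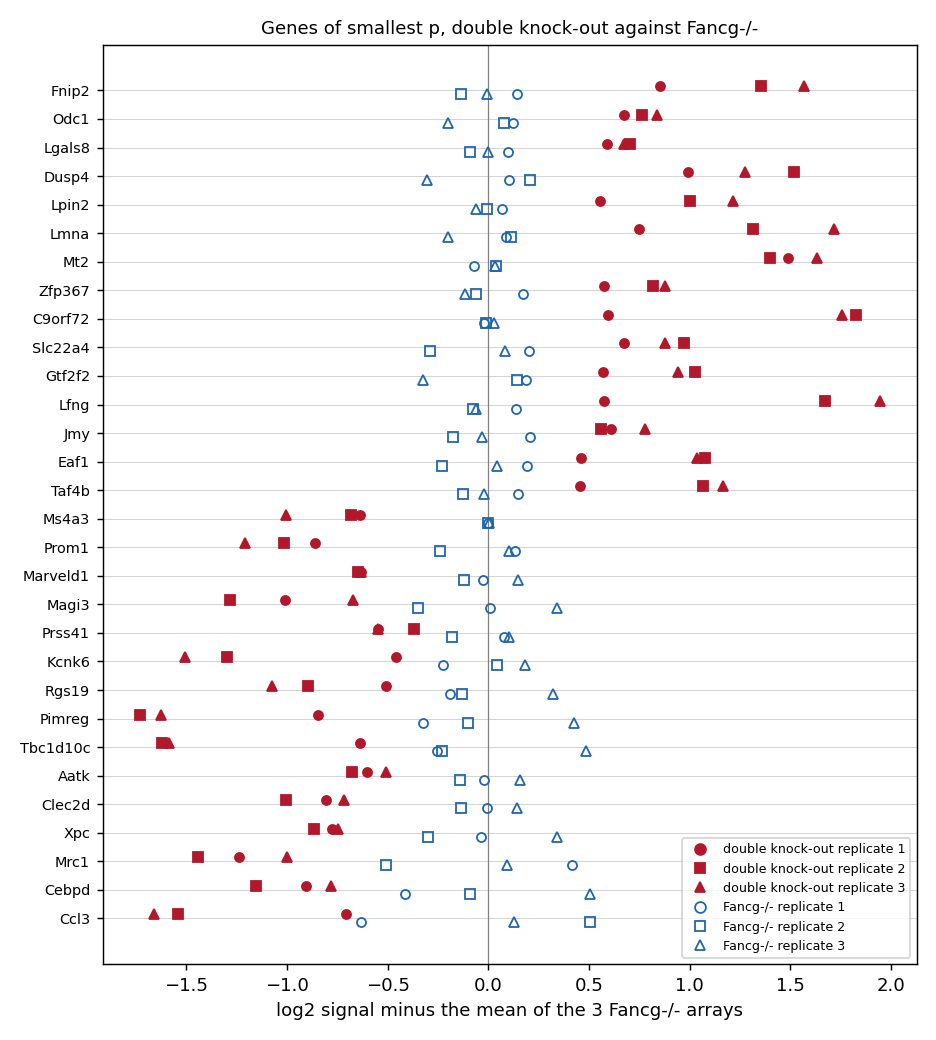
Log2 signal minus the mean of the 3 Fancg-/- arrays (x axis) for the 15 genes of smallest p in each direction (rows), with the double knock-out arrays as filled red and the Fancg-/- arrays as open blue symbols and the replicate number given by the shape. The genotypes do not overlap in any row, and double knock-out replicate 1 (circle) is often the nearest of its group to the Fancg-/- arrays, as for C9orf72, Lfng and Kcnk6.

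Mt2 had the largest difference of the 15 higher genes, 1.51 ± 0.28, and belongs to the metal response. Metallothioneins are small cysteine-rich proteins that bind zinc and copper, and Slc30a1 exports zinc from the cell. All 3 genes are known targets of the zinc-sensing transcription factor Mtf1, which binds metal response elements in their promoters. Mt2 was at 10.83, 10.74 and 10.97 in the double knock-out, against 9.27, 9.38 and 9.37 in Fancg-/- mice, 2.84-fold higher. All 3 double knock-out mice were within a narrow range and far above the Fancg-/- mice, and replicate 1 did not stand apart. Mt1 was at 10.56, 10.91 and 11.08 in the double knock-out, against 9.71, 10.10 and 9.89 in Fancg-/- mice, 1.93-fold higher. Slc30a1 was at 7.28, 8.02 and 8.47 in the double knock-out, against 7.07, 7.09 and 6.98 in Fancg-/- mice, and its replicate 1 was barely above the Fancg-/- range.

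The promoters of these 3 genes are shown with their metal response element cores, since the genes were higher together. The sequences come from RefSeq (GRCm38.p6) and span 250 bases before to 50 bases after the gene start, on the strand of the gene. They lie at chr8:94172368-94172667 (Mt2, plus strand), chr8:94178839-94179138 (Mt1, plus strand) and chr1:191906531-191906830 (Slc30a1, plus strand). Capitals mark matches to TGCACNC or TGCGCNC on either strand, and no matches overlap.
Mt2: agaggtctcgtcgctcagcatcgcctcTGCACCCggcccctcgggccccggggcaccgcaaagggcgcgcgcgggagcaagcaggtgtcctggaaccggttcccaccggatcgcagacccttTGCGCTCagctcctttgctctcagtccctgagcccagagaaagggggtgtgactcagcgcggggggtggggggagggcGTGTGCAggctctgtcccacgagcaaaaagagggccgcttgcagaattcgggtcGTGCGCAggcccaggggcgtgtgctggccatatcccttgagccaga
Mt1: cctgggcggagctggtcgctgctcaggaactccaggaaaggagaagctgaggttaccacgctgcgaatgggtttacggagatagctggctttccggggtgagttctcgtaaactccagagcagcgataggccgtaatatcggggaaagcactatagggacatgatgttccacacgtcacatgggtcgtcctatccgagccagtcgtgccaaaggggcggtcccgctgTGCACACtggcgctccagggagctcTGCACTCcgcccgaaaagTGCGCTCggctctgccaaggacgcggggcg
Slc30a1: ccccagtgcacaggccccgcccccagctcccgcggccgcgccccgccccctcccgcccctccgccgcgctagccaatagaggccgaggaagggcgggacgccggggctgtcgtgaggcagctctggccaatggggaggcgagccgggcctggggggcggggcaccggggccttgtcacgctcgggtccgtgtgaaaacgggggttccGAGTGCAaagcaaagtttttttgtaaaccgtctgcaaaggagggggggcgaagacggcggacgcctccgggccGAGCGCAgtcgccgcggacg
Mt2 held 4 matches, Mt1 held 3 and Slc30a1 held 2. Such a match occurred in 8444 of 32851 promoters of the same length (25.7%), so its presence alone is common. Of the 9 tested genes of the metallothionein and zinc list, 7 had a RefSeq promoter and 5 of these held a match, among them Mt3 and Slc39a8. This list too was drawn from known genes, so its share is no support from these data.

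Within that list of 9, Mt2, Mt1 and Slc30a1 were the members without overlap upwards (33.3%, beside 8.96% of all genes), and Mt3, another metallothionein, was narrowly lower. Mt3 was at 5.18, 5.16 and 5.14 in the double knock-out, against 5.18, 5.27 and 5.42 in Fancg-/- mice. Without double knock-out replicate 1, 4 of the 9 were called higher (beside 4.16% of all genes) and 0 lower: Mt2 (1.52, limma adjusted p = 0.0179), Mt1 (1.10, adjusted p = 0.0377), Slc30a1 (1.20, adjusted p = 0.00241) and Mtf1 (0.83, adjusted p = 0.0475). The importer Slc39a10, which brings zinc into the cell, was at 7.24, 6.24 and 5.48 in the double knock-out, against 6.96, 6.71 and 6.96 in Fancg-/- mice, with replicate 1 above and its partners below the Fancg-/- range.

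**Figure D3:**
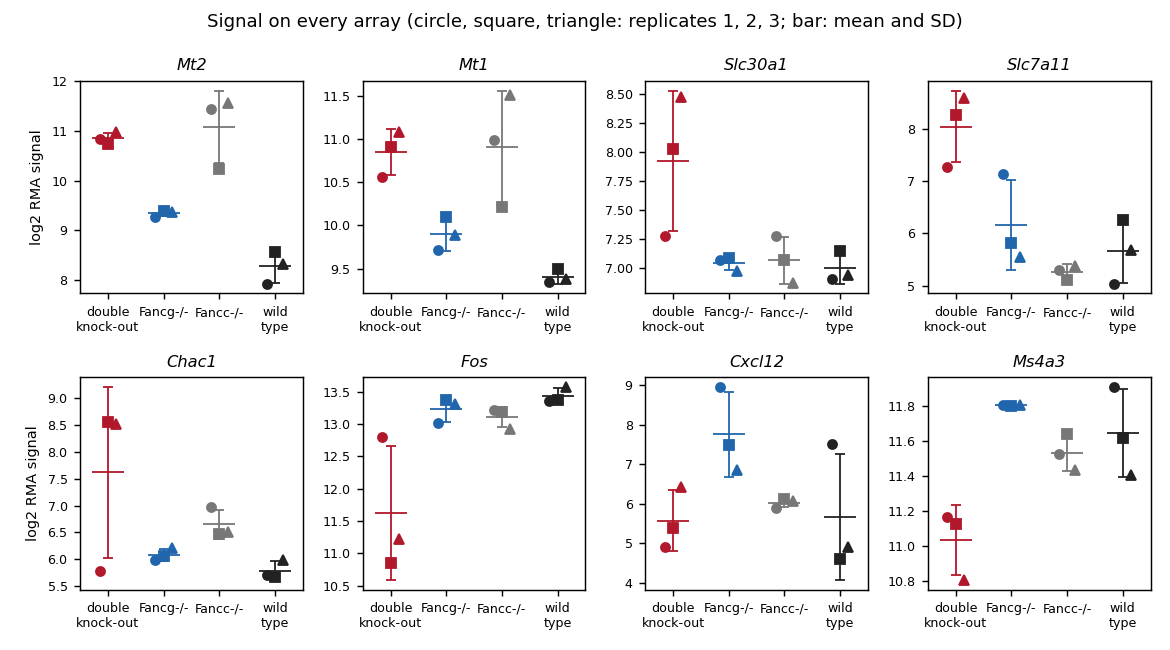
Log2 signal (y axis, each panel on its own scale) of Mt2, Mt1, Slc30a1, Slc7a11, Chac1, Fos, Cxcl12 and Ms4a3 in double knock-out, Fancg-/-, Fancc-/- and wild-type marrow, with replicates 1, 2 and 3 as circle, square and triangle and bars for the mean and SD. The double knock-out is above Fancg-/- on every array for Mt2, Mt1, Slc30a1 and Slc7a11 and below it for Fos, Cxcl12 and Ms4a3, while for Chac1 replicate 1 is below Fancg-/- and replicates 2 and 3 above.

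Genes of the unfolded protein and integrated stress response list leaned the same way. In the integrated stress response, shortage of amino acids or unfolded protein leads to translation of the transcription factor Atf4, which raises amino acid transporters, tRNA synthetases and stress regulators. Of 31 tested genes of the list, 26 had a positive difference (beside 43.8% of all genes) and 10 did not overlap upwards (32.3%, beside 8.96% of all genes), with 0 lower, and 0 were called with all arrays. The list median was 0.36, beside -0.03 for all genes, and its values in the double knock-out mice were 0.11, 0.42 and 0.24 against the Fancg-/- mean. Slc7a11, the light chain of the cystine importer, was at 7.27, 8.25 and 8.59 in the double knock-out, against 7.13, 5.81 and 5.54 in Fancg-/- mice, a difference of 1.88 ± 0.43. Its heavy chain Slc3a2 was at 10.74, 11.48 and 11.53 in the double knock-out, against 10.66, 10.60 and 10.08 in Fancg-/- mice. In both chains the replicates numbered 1 of the 2 genotypes were close to each other.

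The tRNA synthetase gene Gars was at 10.11, 10.74 and 10.65 in the double knock-out, against 9.99, 9.78 and 9.89 in Fancg-/- mice. Trib3, a pseudokinase induced by Atf4, was at 6.17, 8.27 and 7.77 in the double knock-out, against 6.09, 6.06 and 5.84 in Fancg-/- mice. Chac1, which degrades glutathione, was at 5.78, 8.56 and 8.51 in the double knock-out, against 5.98, 6.06 and 6.20 in Fancg-/- mice. For Trib3 replicate 1 was barely above the Fancg-/- mice, and for Chac1 it was below them while its partners were over 2 log2 units higher. Without replicate 1, 9 of the 31 were called higher (beside 4.16% of all genes) and 0 lower in limma, among them Chac1 (2.45, adjusted p = 4.74e-05), Trib3 (2.02, adjusted p = 0.00294), Sesn2 (1.35, adjusted p = 0.00321), Atf4 itself (0.80, adjusted p = 0.00521) and Ddit3 (1.12, adjusted p = 0.0475). Asns, the asparagine synthetase gene, differed by 0.36 and was highest in replicate 1, at 10.06, 9.92 and 9.72 in the double knock-out, against 9.70, 9.53 and 9.39 in Fancg-/- mice. The members of the unfolded protein arm did not share the direction throughout: Dnajb9, a chaperone of the endoplasmic reticulum, was at 9.98, 9.22 and 9.52 in the double knock-out, against 10.03, 10.12 and 9.76 in Fancg-/- mice.

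The promoters of Slc7a11 and Trib3 are shown because amino acid response elements, to which Atf4 binds, are known in both genes. They come from the same RefSeq table and span chr3:50443564-50443863 (Slc7a11, minus strand) and chr2:152344011-152344310 (Trib3, minus strand) of GRCm38.p6, written on the strand of the gene. Capitals mark matches to TGATGNAA on either strand.
Slc7a11: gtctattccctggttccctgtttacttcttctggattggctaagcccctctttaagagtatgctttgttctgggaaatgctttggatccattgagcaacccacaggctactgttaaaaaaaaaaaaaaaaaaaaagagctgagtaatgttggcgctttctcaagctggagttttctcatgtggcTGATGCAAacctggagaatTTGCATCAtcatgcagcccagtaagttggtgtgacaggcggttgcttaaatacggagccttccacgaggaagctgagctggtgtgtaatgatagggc
Trib3: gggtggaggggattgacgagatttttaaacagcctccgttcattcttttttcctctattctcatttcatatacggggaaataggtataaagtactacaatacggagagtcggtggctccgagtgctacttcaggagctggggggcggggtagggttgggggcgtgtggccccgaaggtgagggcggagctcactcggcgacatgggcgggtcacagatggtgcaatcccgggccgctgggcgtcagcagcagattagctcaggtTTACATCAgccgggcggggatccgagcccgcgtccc
Slc7a11 held 2 matches and Trib3 held 1. Of 28 tested members with a RefSeq promoter, 8 held a match, beside 1304 of 32851 promoters (3.97%). The list was drawn from genes known for these responses, so its share is no support from these data. Members were counted by gene, and the 32851 promoters include those of untested genes.

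The immediate early genes had the lowest list median of all 35 lists, and replicate 1 did not share it. These genes are transcribed within minutes of a stimulus, including the handling of a tissue. Of 27 tested members, 21 had a negative difference, 5 did not overlap downwards (18.5%, beside 10.4% of all genes) and 0 were called. The list median was -0.63, made up of 0.01, -0.94 and -0.90 in the double knock-out mice. Fos, an AP-1 subunit, was at 12.80, 10.84 and 11.22 in the double knock-out, against 13.01, 13.38 and 13.30 in Fancg-/- mice. Zfp36, which destabilizes cytokine messenger RNA, was at 11.63, 10.22 and 10.38 in the double knock-out, against 11.72, 12.32 and 12.33 in Fancg-/- mice. Replicate 1 was just below the Fancg-/- mice for both genes, whereas its partners were far below them.

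Without replicate 1, 14 of the 27 were called lower (beside 4.19% of all genes) and 0 higher in limma. They included Fos (-2.20, adjusted p = 4.48e-05), Dusp1 (-1.86, adjusted p = 5.72e-05), Jun (-2.08, adjusted p = 0.000852), Egr1 (-2.47, adjusted p = 0.00303) and Nr4a1 (-2.03, adjusted p = 0.00379). Dusp5, another MAP kinase phosphatase, went the other way, at 9.15, 9.26 and 9.20 in the double knock-out, against 9.11, 8.70 and 8.42 in Fancg-/- mice. The inflammatory list, which shares Zfp36, had 8 of 26 members called lower and 2 higher without replicate 1, beside 4.19% and 4.16% of all genes. Il1b, the interleukin 1 beta gene, was at 10.93, 8.36 and 8.98 in the double knock-out, against 11.29, 10.74 and 11.55 in Fancg-/- mice. Ptgs2, the inducible prostaglandin synthase, was at 8.93, 5.15 and 5.62 in the double knock-out, against 9.28, 8.85 and 9.08 in Fancg-/- mice. Relb and Nfkb2, partners in the alternative NF-kB pathway, were the 2 higher members. Relb was at 6.01, 7.65 and 8.17 in the double knock-out, against 5.92, 5.72 and 6.15 in Fancg-/- mice. Nfkb2 was at 7.79, 8.67 and 8.93 in the double knock-out, against 7.76, 7.91 and 7.37 in Fancg-/- mice. In all 4 genes replicate 1 was within or next to the Fancg-/- range.

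**Figure D4:**
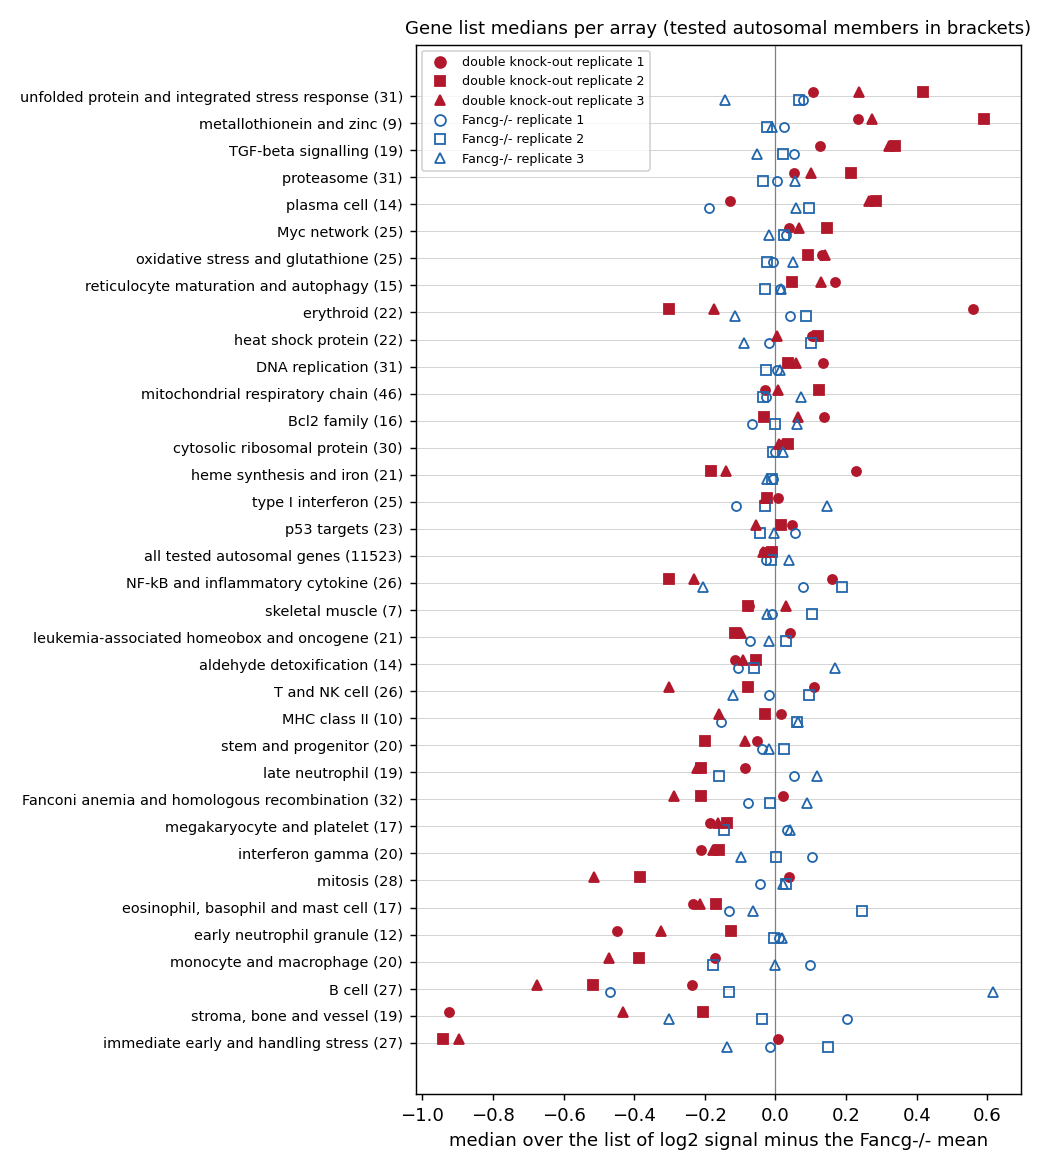
Median over each gene list (rows, number of tested autosomal members in brackets) of the log2 signal minus the mean of the 3 Fancg-/- arrays (x axis), for each double knock-out array (filled red) and each Fancg-/- array (open blue). The list of all tested genes is near 0 on all 6 arrays, the immediate early list is near -0.9 in double knock-out replicates 2 and 3 and at 0.01 in replicate 1, and the erythroid list is highest in replicate 1, at 0.56.

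In the list of early neutrophil granule genes the median was negative in all 3 double knock-out mice. All 12 tested members had a negative difference (beside 56.2% of all genes), 7 of them without overlap (58.3%, beside 10.4% of all genes), and the list median was -0.30. The medians of the double knock-out mice were -0.45, -0.12 and -0.33, so replicate 1 was the lowest. The other 5 members overlapped, among them Prtn3 and Hp, where 1 double knock-out mouse was above 2 Fancg-/- mice. Besides Ms4a3, Gfi1, a transcription factor needed for neutrophil formation, was at 6.61, 5.86 and 6.85 in the double knock-out, against 7.23, 7.19 and 8.15 in Fancg-/- mice. Mpo, the myeloperoxidase of primary granules, was at 13.06, 13.27 and 13.15 in the double knock-out, against 13.39, 13.40 and 13.32 in Fancg-/- mice, a small difference of -0.21 ± 0.07. The serine protease genes Ctsg and Elane differed by -0.36 and -0.22. None was called with all arrays (limma adjusted p = 0.174 for Ms4a3), and Ms4a3 was the 1 member called without replicate 1.

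In the list of later neutrophil stages 18 of 19 members had a negative difference, but the median was only -0.15, or 0.04 against Fancg-/- replicate 2 alone, and 3 did not overlap downwards (15.8%, beside 10.4% of all genes). Cxcr2, the receptor that draws mature neutrophils out of the marrow, was at 8.73, 6.65 and 6.71 in the double knock-out, against 8.95, 8.75 and 9.46 in Fancg-/- mice. The granule proteins themselves differed little: Ltf (lactoferrin) was at 13.61, 13.59 and 13.59 in the double knock-out, against 13.80, 13.53 and 13.75 in Fancg-/- mice. Without replicate 1, 4 of the 19 were called lower (beside 4.19% of all genes): Cxcr2, Il1b, Fpr2 and Mcemp1. Fpr2, a receptor for formylated peptides, differed by -0.99 ± 0.26 with all arrays.

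For macrophages, stroma and B cells the Fancg-/- mice themselves varied. Among macrophage genes, C1qa, a complement subunit, was at 5.63, 5.95 and 6.05 in the double knock-out, against 7.93, 6.08 and 7.21 in Fancg-/- mice, where replicates 1 and 3 were high and replicate 2 was next to the double knock-out. C1qb and C1qc had the same order among the Fancg-/- mice. The list of 20 had a median of -0.36 and 3 members without overlap downwards (15.0%, near the 10.4% of all genes), and a median of -0.20 against Fancg-/- replicate 2 alone. Replicates 1 and 3 are the Fancg-/- arrays with both sex marks; their part in the macrophage result was otherwise not tested. Against replicate 2 alone, the medians of other lists were 0.23 for metallothionein and zinc, 0.26 for the unfolded protein and integrated stress response and -0.84 for immediate early genes. They were -0.32 for the inflammatory list (-0.03 with all arrays), -0.31 for early neutrophil granules, -0.31 for B cells, -0.40 for stroma, bone and vessel and 0.03 for erythroid genes.

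Of 34 stroma, bone and vessel genes, 30 were on the array and 19 autosomal ones were bright enough to test. Of the 19, 17 had a negative difference and 7 did not overlap downwards (36.8%, beside 56.2% negative and 10.4% without overlap among all genes), with a median of -0.49. Cxcl12, the chemokine that holds blood stem cells in their niche, was at 4.91, 5.38 and 6.43 in the double knock-out, against 8.95, 7.48 and 6.85 in Fancg-/- mice. Mmp13, a collagenase of bone cells, was at 2.82, 3.07 and 3.44 in the double knock-out, against 7.57, 5.27 and 5.17 in Fancg-/- mice. It was below the array median on every double knock-out array and so was tested only because other arrays were bright. Without it, 16 of 18 members were negative, 6 did not overlap downwards and the median was -0.39. Adipoq, an adipocyte hormone, was at 3.94, 4.77 and 4.88 in the double knock-out, against 7.40, 6.35 and 5.54 in Fancg-/- mice. For all 3 genes Fancg-/- replicate 1 was the highest, and without it the list median was -0.17. Collagen did not follow: Col1a2 was at 5.95, 9.85 and 7.94 in the double knock-out, against 9.71, 8.25 and 7.55 in Fancg-/- mice.

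The B cell list had a median of -0.45 over 27 genes, with 24 negative but only 3 without overlap downwards (11.1%, beside 10.4% of all genes). Vpreb1, which with Igll1 stands in for the light chain in early B cells, was at 4.20, 5.21 and 5.70 in the double knock-out, against 5.07, 5.88 and 8.92 in Fancg-/- mice. Igll1 was at 5.57, 6.12 and 6.31 in the double knock-out, against 6.22, 6.48 and 8.55 in Fancg-/- mice. Fancg-/- replicate 3, the array with the smaller RNA input, was the high one in both, and without it the list median was -0.12. The exception in the list was Tnfrsf13c, the receptor for the B cell survival factor BAFF, at 8.09, 7.60 and 7.74 in the double knock-out, against 6.54, 6.83 and 7.35 in Fancg-/- mice, a difference of 0.90 ± 0.24 (limma adjusted p = 0.178).

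Red cell genes separated the double knock-out mice from each other. The erythroid list of 22 genes had a median of 0.07, made up of 0.56, -0.30 and -0.17 in the 3 mice. It had 1 gene without overlap upwards (4.55%, beside 8.96% of all genes). The heme and iron list had medians of 0.23, -0.18 and -0.14. Add2, a subunit of the red cell membrane skeleton, was at 8.43, 7.79 and 7.80 in the double knock-out, against 7.78, 7.71 and 7.25 in Fancg-/- mice. Storage and export of iron differed in sign: Fth1, the ferritin heavy chain, was at 13.81, 13.88 and 13.95 in the double knock-out, against 13.70, 13.57 and 13.50 in Fancg-/- mice. The exporter Slc40a1 was at 9.05, 8.60 and 9.12 in the double knock-out, against 9.58, 9.28 and 9.97 in Fancg-/- mice. Neither overlapped between the genotypes and neither was called (limma adjusted p = 0.195 and 0.208).

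The DNA damage genes did not move as a group. The p53 target list of 23 genes had a median of -0.01, or 0.08 against Fancg-/- replicate 2 alone, with 5 members without overlap upwards (21.7%, beside 8.96% of all genes) and 1 downwards (beside 10.4%). Bbc3, which encodes the death protein Puma, was at 8.13, 8.77 and 8.96 in the double knock-out, against 7.81, 7.77 and 7.23 in Fancg-/- mice. Perp, a membrane protein of the p53 response, was at 6.32, 7.74 and 6.99 in the double knock-out, against 5.06, 5.45 and 5.18 in Fancg-/- mice, a difference of 1.79 ± 0.51. Mdm2, which degrades p53, was at 9.78, 10.31 and 10.40 in the double knock-out, against 9.70, 9.38 and 9.48 in Fancg-/- mice. Of these, Bbc3 (1.26), Perp (2.14), Mdm2 (0.83) and also Sesn2 were called higher without replicate 1, and Xpc, Btg2 and Plk3 lower, so 4 and 3 of 23, beside 4.16% and 4.19% of all genes. Zmat3 and Phlda3, also p53 targets, overlapped between the genotypes, with differences of -0.17 and -0.09.

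Of 32 Fanconi and homologous recombination genes, 23 had a negative difference (beside 56.2% of all genes) and the median was -0.16, or -0.13 against Fancg-/- replicate 2 alone, with medians of 0.02, -0.21 and -0.29 in the double knock-out mice. After Fancg, the member of smallest p was Brip1, the helicase FANCJ, at 5.55, 4.70 and 5.18 in the double knock-out, against 5.73, 5.68 and 6.05 in Fancg-/- mice. It was the 1 gene of the list called without replicate 1 (-0.88, limma adjusted p = 0.0283). Fancg itself, targeted in both genotypes, is counted among the 32 and among the 23 negative ones. Of the 32, 5 did not overlap downwards, Fancg among them (beside 10.4% of all genes), and 1 upwards (beside 8.96% of all genes). The latter was Brca1, at 8.54, 8.54 and 8.60 in the double knock-out, against 8.31, 8.32 and 8.21 in Fancg-/- mice. The core complex genes Fanca, Fance, Fancf and Fancl overlapped between genotypes, with differences of -0.15, -0.06, 0.17 and -0.10. Of 28 mitosis genes, 27 had a negative difference (beside 56.2% of all genes) and 4 did not overlap downwards (beside 10.4% of all genes). The list medians were 0.04, -0.38 and -0.51 in the double knock-out mice, and the median difference was -0.33 against Fancg-/- replicate 2 alone. Without replicate 1, 6 of the 28 were called lower (beside 4.19% of all genes), among them Plk1 (-0.96, limma adjusted p = 0.0119), the kinase that drives entry into mitosis. DNA replication genes had a median of only 0.03 over 31 genes, with 21 positive (beside 43.8% of all genes). Among them 9 did not overlap upwards (beside 8.96% of all genes) and 2 downwards (beside 10.4% of all genes).

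TGF-beta signalling restrains the growth of blood progenitors, and its list holds carriers of the signal as well as inhibitors. Of 19 tested genes, 15 had a positive difference (beside 43.8% of all genes) and 7 did not overlap upwards (36.8%, beside 8.96% of all genes), with 0 downwards, a median of 0.23 and 0 called. Against Fancg-/- replicate 2 alone the median was 0.18. Tgfbr1, the type I receptor, was at 8.59, 9.73 and 9.88 in the double knock-out, against 8.33, 8.28 and 7.88 in Fancg-/- mice. Smad3, which carries the signal to the nucleus, was at 7.63, 8.45 and 8.78 in the double knock-out, against 7.60, 7.50 and 7.59 in Fancg-/- mice. Smad7, an inhibitor of the pathway, was at 8.07, 8.28 and 8.30 in the double knock-out, against 7.77, 7.42 and 7.70 in Fancg-/- mice. Tgfbr1, Smad3 and the Smad repressors Skil and Ski were called higher without replicate 1 (4 of 19, beside 4.16% of all genes), with differences of 1.64, 1.05, 1.18 and 0.81. Replicate 1 was above the Fancg-/- mice for Tgfbr1, Smad3, Smad7 and Ski and within their range for Skil.

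The loss of Fancc could also be read in the presence of Fancg, from the Fancc-/- and wild-type mice, which share no array with the comparison above. The sex marks of the 2 pairs differed. Xist was at 12.13, 11.76 and 11.19 in Fancc-/- mice, against 11.30, 12.15 and 12.23 in wild type. Eif2s3y lay between 2.89 and 3.30 on all of these arrays. The double knock-out arrays had the opposite marks, and the part of sex in any difference between the pairs was not tested. There limma called 520 genes (4.51%), 247 higher (2.14%) and 273 lower (2.37%) in Fancc-/- marrow. The count was 328 without wild type replicate 1, 171 without replicate 2 and 221 without replicate 3, and the comparisons below use the set of 520. Of the 15 leading higher genes above, 4 were called higher in Fancc-/- marrow as well (Mt2, Lmna, Lpin2 and Jmy) and 11 had the same sign. Of the 15 lower genes, 0 were called and 11 had the same sign. Mt2 was at 11.44, 10.24 and 11.57 in Fancc-/- mice, against 7.92, 8.56 and 8.32 in wild type, a difference of 2.81 ± 0.28 (limma adjusted p = 0.000683). Its level in the double knock-out lay within the range of the Fancc-/- mice, and its level in Fancg-/- mice was above all wild-type mice. Lmna was at 8.19, 8.27 and 8.48 in Fancc-/- mice, against 7.05, 7.60 and 6.91 in wild type. Slc30a1 differed by 0.07 between Fancc-/- and wild-type mice and Slc7a11 by -0.39, so neither was higher there.

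Taking instead the genes called in Fancc-/- marrow, 192 of the 247 higher ones had a positive difference between double knock-out and Fancg-/- mice (77.7%, beside 43.8% of all genes), with a median of 0.12 against 0.86 in Fancc-/- minus wild type. Of the 273 lower ones, 176 were negative (64.5%, beside 56.2% of all genes), with medians of -0.12 and -0.88. Across the 11523 genes, which are not independent replicates, the differences of the 2 pairs correlated at 0.215. The B cell list differed by a median of -2.14 between Fancc-/- and wild-type mice, with 21 of 27 genes called lower (beside 2.37% of all genes). The erythroid list differed by 1.07 there, with 16 of 22 called higher (beside 2.14% of all genes). Between double knock-out and Fancg-/- mice the 2 medians were -0.45 and 0.07.

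**Figure D5:**
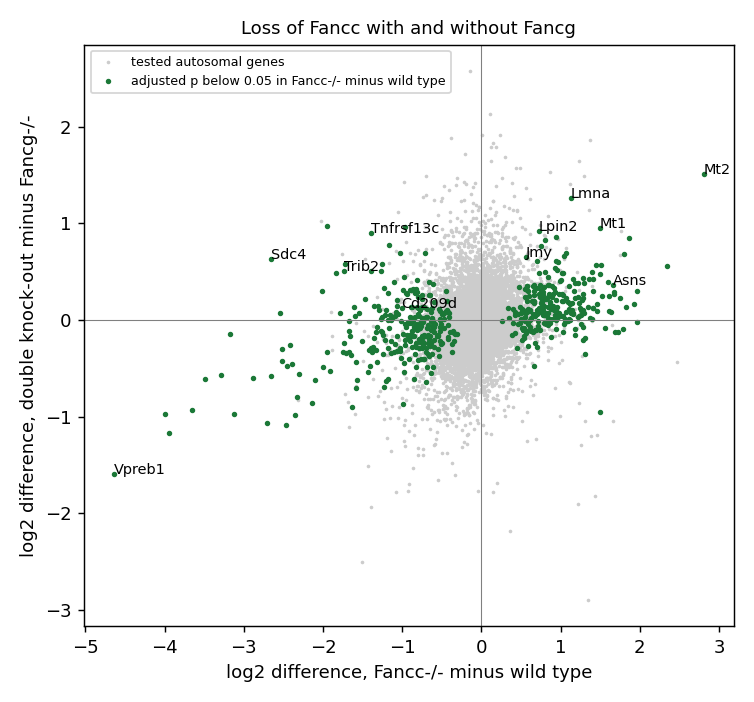
Log2 difference between double knock-out and Fancg-/- marrow (y axis) against that between Fancc-/- and wild-type marrow (x axis) for all tested autosomal genes (grey), with genes called in Fancc-/- minus wild type in green. The green points reach from below -4 to almost 3 on the x axis and mostly stay within 1 of 0 on the y axis, with Mt2 the highest named gene on both and Vpreb1 the lowest.

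The test of the interaction asks whether the change with Fancc loss differs between the Fancg-/- and the intact background. The sex marks also differed between these backgrounds, and their part in the interaction was not tested. It called 1 gene in limma (0.00868%), and 1722 genes had an unadjusted p below 0.05 (14.9%). The gene was Cd209d, a C-type lectin of the DC-SIGN family, with an interaction of 1.13 ± 0.12 (adjusted p = 0.0119). Its signal was 4.75, 4.83 and 4.75 in the double knock-out, against 4.73, 4.61 and 4.62 in Fancg-/- mice, and 4.57, 4.42 and 4.34 in Fancc-/- mice, against 5.51, 5.46 and 5.38 in wild type. Only the wild-type mice were above the array medians, which lay between 4.79 and 4.87, so the gene was tested because of them. Fancg-/- arrays were already below the medians, so a fall with Fancc loss could hardly be measured there and the sign of the interaction carries no further information. Sdc4 (a cell surface proteoglycan), Cpm (a carboxypeptidase), Tnfrsf13c and Trib2 (a pseudokinase) came next at adjusted p = 0.0664, with interactions of 3.28, 2.31, 2.29 and 2.25, and all were called lower in Fancc-/- than in wild-type mice. Their differences between double knock-out and Fancg-/- mice were positive (0.63, 0.30, 0.90 and 0.51) and not called. For Sdc4 the difference was -0.27 among probe sets with no _s, _x or _a suffix.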

How the data were processed

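Per the submitters' processing notes, which name RMA and Partek without versions, the authors deposited 1 log2 signal for each probe set and array. RMA corrects background, equalizes array distributions by quantiles and summarizes probes. RMA shares normalization across arrays and compresses differences of dim probes. Array signals give no count depth, so the number of arrays, 3 per group and 12 in all, limits the precision. Of 45101 probe sets, 34945 had a single gene symbol, 932 had several and 9160 had none, and 64 were controls. A gene was tested if its probe set was above the array median (percentile 50) on 3 or more arrays. Tests ran on 11906 genes, of which 332 were on X or Y and 51 had no chromosome assigned.

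limma 3.58.1 in R 4.3.3 fitted 1 linear model with a mean per group over the 12 arrays (8 residual degrees of freedom), with moderated variances and a variance trend. Tests were 2-sided with Benjamini-Hochberg adjustment over all tested genes, and a gene was called at an adjusted p below 0.05. The procedure was checked on simulated data. The interaction is (double knock-out minus Fancg-/-) minus (Fancc-/- minus wild type). Values are means with SD over 3 marrow samples or differences with SE.

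Named genes were Fancc, Fancg, the sex-linked marks, the 15 autosomal genes of smallest p per direction without predicted genes, 3 members of smallest p from each of 35 lists, and 5 for the interaction. Further members, all genes named from fits without double knock-out replicate 1 included, were chosen after their values were seen. The members, lists and tests were chosen with earlier results of these data known. Lists are described by counts and medians with no test. Promoter sequences are from RefSeq (GRCm38.p6).

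Alternatives changed the filter, the probe set of a gene, the scaling, the variance model, array weights, the arrays in the fit, a replicate block and the arrays left out. Same-numbered Fancc-/- and wild-type arrays deviated together (correlations 0.16, 0.15 and 0.16), which the data and not the labels show. With the replicate number as a block 508 genes were called between them, beside 520.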

Additional observations from a re-analysis of the deposited data

Results flagged for a closer look

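The interaction test passed for 1 gene, Cd209d, with an interaction of 1.13 (limma adjusted p = 0.0119, 95% interval 0.86 to 1.40). Its difference was 0.12 ± 0.09 between double knock-out and Fancg-/- mice and -1.01 ± 0.09 between Fancc-/- and wild-type mice (SE, n = 3 per group). All 3 wild-type mice were above all 9 others, and only they were above the array medians, so the gene was bright enough to test through the wild type alone and a fall from the low Fancg-/- level could hardly be measured. The adjusted p passed the threshold of 0.05 under most alternatives and missed it without wild type replicate 2 (0.0624), without double knock-out replicate 2 (0.0653) or 3 (0.0534), and without Fancg-/- replicates 1 and 3 together (0.0960). The signal is at the percentile 2.84 of tested genes by its mean, where RMA signals of specific and unspecific binding are hard to separate.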

How the results depend on the processing

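The 0 genes called between double knock-out and Fancg-/- mice became 2172 with array weights, 2 in a fit of the 6 arrays alone, and 89 without double knock-out replicate 1 and Fancg-/- replicates 1 and 3. Leaving out each array gave 0 to 962, the highest without double knock-out replicate 1. The filter, probe set, scaling and variance alternatives and the omission of Fancg-/- replicates 1 and 3 gave 0. The interaction count of 1 became 5 without a filter, 0 with a filter at the percentile 75, 3 with the mean of all probe sets, 0 with probe sets of no suffix, 1009 with array weights, 3 without Fancg-/- replicates 1 and 3, 75 without these and double knock-out replicate 1, and 0 to 580 with each array left out (102 without Fancc-/- replicate 3, 21 without Fancg-/- replicate 3). The count of 520 for Fancc-/- minus wild type became 240 with those 6 arrays alone, 272 without Fancg-/- replicates 1 and 3, and 171 to 687 with each array left out. The 1662 genes at unadjusted p below 0.05 became 3624 with array weights, 641 without Fancg-/- replicates 1 and 3, and 891 to 2570 with each array left out. The 2232 genes without overlap became 6300 and 9196 with 2 and 3 arrays left out, and 2949 to 5261 with each left out, where fewer arrays overlap less by construction. Apart from that, the causes were not tested. Median centring turned the split of genes at unadjusted p below 0.05 to 820 higher and 738 lower, beside 774 and 888.

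All 30 leading genes that an alternative measured kept their direction in it, except Lmna. With arrays left out the direction was fixed in advance, since the genotypes did not overlap in these genes. With probe sets of no suffix the log2 change turned negative for Lmna, at -0.083, and for Sdc4, a list member, at -0.27. That of Mb, -0.08, ran from -0.17 to 0.021 with each array left out. Replicate numbers did not pair double knock-out and Fancg-/- arrays, where deviations of same-numbered arrays correlated at 0.01, 0.03 and 0.10. With the replicate number as a block 0 genes were called, 1641 had an unadjusted p below 0.05, and the interaction still called 1.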

Other observations

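Genes that set double knock-out replicates 2 and 3 apart, chosen after their values were seen, include regulators of NF-kB and lysosomes. Niban2, an adaptor of growth signalling, was at 7.89, 10.53 and 10.39 in the double knock-out, against 7.84, 8.05 and 7.76 in Fancg-/- mice. Tnip1, a partner of the NF-kB inhibitor A20, was at 9.13, 10.65 and 10.63 in the double knock-out, against 9.19, 9.22 and 9.38 in Fancg-/- mice. Gpr137b, a lysosomal membrane protein, was at 7.57, 9.76 and 10.06 in the double knock-out, against 7.10, 7.04 and 7.50 in Fancg-/- mice. Without replicate 1 the differences were 2.58, 1.38 and 2.70, all called in limma. The vitamin C transporter Slc23a2 was at 6.19, 7.99 and 8.16 in the double knock-out, against 6.25, 6.35 and 6.17 in Fancg-/- mice. Among lower genes, Insr, the insulin receptor gene, was at 6.83, 5.06 and 5.34 in the double knock-out, against 6.97, 6.67 and 6.78 in Fancg-/- mice. In each of these genes replicate 1 was within or next to the Fancg-/- range.

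Of 16 Bcl2 family genes, 2 were called higher and 1 lower without replicate 1, beside 4.16% and 4.19% of all genes. Bcl2, the survival factor, was at 8.65, 7.34 and 7.27 in the double knock-out, against 8.38, 8.60 and 8.41 in Fancg-/- mice, and Bcl2l11, which encodes the death protein Bim, was at 9.77, 10.82 and 10.78 in the double knock-out, against 9.47, 9.36 and 9.13 in Fancg-/- mice. Myc was at 8.20, 7.68 and 7.35 in the double knock-out, against 8.10, 8.35 and 8.46 in Fancg-/- mice, and its antagonist Mnt at 8.59, 9.59 and 9.74 in the double knock-out, against 8.52, 8.47 and 8.25 in Fancg-/- mice. In the Myc network list of 25 genes, 4 were called higher without replicate 1 and 1 lower, beside 4.16% and 4.19% of all genes. The higher ones were Mnt, Mxi1, Odc1 and Wdr43, and the lower one was Myc. Erg, a transcription factor of blood stem cells, was at 6.49, 5.45 and 5.22 in the double knock-out, against 6.71, 6.37 and 7.27 in Fancg-/- mice. Of 21 leukemia-associated genes, 5 were called lower and 1 higher without replicate 1, beside 4.19% and 4.16% of all genes. Of 31 proteasome genes, 28 had a positive difference (beside 43.8% of all genes) and 9 did not overlap upwards (29.0%, beside 8.96%), with a median of 0.12, or 0.16 against Fancg-/- replicate 2 alone, and 0 called, and cytosolic ribosomal protein genes had a median of 0.00.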
